A study of Mus musculus with 10 samples.

Results

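Umod, Slc12a1, Egf, Bsnd, Casr and Ptger3, genes of salt transport, hormone sensing and protein secretion in the thick ascending limb of the nephron, were followed in the kidneys of mice exposed to quinolinic acid. The 6 genes were chosen by their known place in this segment, and each was represented by its transcript of highest mean level among the 27876 gene symbols of the comparison. RNA was sequenced from kidneys of wild-type mice taken on day 14, from 5 mice on vehicle and 5 whose drinking water held quinolinic acid at 0.5 g/L. Quinolinic acid is a product of tryptophan breakdown, and the study asked whether an excess of it harms the kidney. The labels give neither strain, age nor a kidney injury for these animals, and all 10 libraries carry the same batch label.

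The thick ascending limb reabsorbs sodium chloride without water and so dilutes the tubular fluid and builds the medullary gradient. NKCC2, the product of Slc12a1, carries sodium, potassium and chloride in from the lumen, potassium returns to the lumen through the channel ROMK, and chloride leaves on the blood side through channels that need barttin, the product of Bsnd. The resulting voltage drives calcium and magnesium between the cells. The calcium-sensing receptor (Casr) and the prostaglandin E2 receptor EP3 (Ptger3) both restrain this transport. The same cells make uromodulin (Umod), the most abundant protein of normal urine, and epidermal growth factor (Egf), which is also made in the distal convoluted tubule.

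The authors' deposited table gives for each transcript 1 log2 fold change between the groups, a mean log2 CPM (read counts scaled to a common library total) over the libraries, a likelihood ratio and its p-values. The values of each library were not analysed here. Neither the depth of a library nor the spread between mice can be shown, and how the levels of single mice lie or overlap cannot be read. Each error below is an approximate 95% interval that uses the fold change together with its likelihood ratio. Which group is the numerator is not stated, so a sign is given as deposited and carries no direction relative to quinolinic acid. In whole kidney, fewer cells of a type and less RNA per cell cannot be told apart. The labelled tissue carried kidney markers, for which the authors' deposited table gives means of 16100 CPM (Kap), 1430 CPM (Slc34a1) and 50.4 CPM (Aqp2).

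The coding Slc12a1 transcripts of the table number 3, each of 27 exons, and apart from their ends they differ in a single cassette exon of 96 nt. The cassette encodes part of the transporter's membrane domain, and its alternatives are known to differ in chloride affinity and in their place along the limb. They are shown because they are the sequence by which a change of isoform would be read. All lie on the plus strand of chromosome 2 (GRCm38), at chr2:125165495-125165590 for Slc12a1-202, chr2:125166123-125166218 for Slc12a1-201 and chr2:125166673-125166768 for Slc12a1-203. Capitals mark the 45 positions at which the cassettes are not all alike, and the other 51 positions are the same in all of them.
Slc12a1-202: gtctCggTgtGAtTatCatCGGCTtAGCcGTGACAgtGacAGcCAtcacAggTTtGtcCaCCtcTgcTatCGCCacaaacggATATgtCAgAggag
Slc12a1-201: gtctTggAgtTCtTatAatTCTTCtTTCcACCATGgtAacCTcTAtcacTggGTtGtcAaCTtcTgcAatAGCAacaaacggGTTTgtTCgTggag
Slc12a1-203: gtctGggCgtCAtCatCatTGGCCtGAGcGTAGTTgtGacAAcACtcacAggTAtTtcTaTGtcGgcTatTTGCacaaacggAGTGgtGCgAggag
Slc12a1-202 and Slc12a1-203 share 66 of the 96 bases, Slc12a1-202 and Slc12a1-201 share 63, and Slc12a1-201 and Slc12a1-203 share 56.

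The other genes with several coding transcripts were Casr and Ptger3. Casr-201 holds an exon of 231 nt, or 77 codons, on the minus strand at chr16:36500177-36500407, which Casr-202 lacks. Ptger3-202 holds an exon of 89 nt on the plus strand at chr3:157641721-157641809, which Ptger3-201 lacks. This exon lies in the part of the gene that encodes the receptor's tail inside the cell, where the EP3 forms are known to differ. Both exons are shown because they are the difference between transcripts whose values are compared below.
Casr-201 exon: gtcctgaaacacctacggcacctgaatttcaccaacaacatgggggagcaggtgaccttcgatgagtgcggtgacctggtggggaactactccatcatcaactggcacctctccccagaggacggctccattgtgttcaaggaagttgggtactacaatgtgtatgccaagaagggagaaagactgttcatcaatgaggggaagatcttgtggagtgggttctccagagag
Ptger3-202 exon: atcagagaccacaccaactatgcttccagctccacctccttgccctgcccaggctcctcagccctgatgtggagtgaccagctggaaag

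The mean levels of the 6 genes spanned a wide range. Per length, the mean level over both groups was highest for Umod, at 486 CPM per kb of transcript, which placed it 40th of the 27876 genes. Egf followed at 87.0 CPM per kb and Slc12a1 at 80.6 CPM per kb, the 346th and 399th places. Bsnd stood at 8.63 CPM per kb, Ptger3 at 6.31 CPM per kb and Casr at 1.50 CPM per kb. The secreted proteins and the cotransporter were thus the abundant members, and both receptors and the channel subunit were far lower, with a 325-fold range from Casr to Umod. Without values per library no spread belongs to these levels, and it cannot be said whether neighbours such as Egf and Slc12a1 differ. All 6 genes exceeded 1 CPM.

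**Figure D1:**
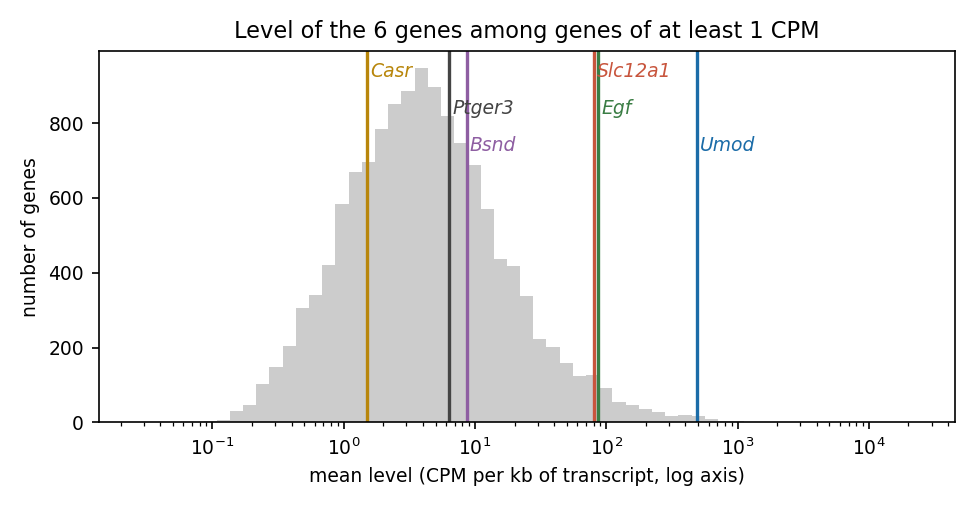
Mean level of each of the 6 genes in CPM per kb of transcript (log horizontal axis), drawn as coloured lines over a histogram of the number of genes of at least 1 CPM (vertical axis, grey). Umod at 486 CPM per kb lies furthest right of the 6 genes, Egf and Slc12a1 lie side by side at 87.0 and 80.6, and Casr at 1.50 lies left of the histogram's peak.

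None of the 6 genes was called between vehicle and quinolinic acid. By edgeR's likelihood-ratio test with Benjamini-Hochberg adjustment over all 85107 transcripts, 0 of 6 reached an adjusted p under 0.05, where 0.0215% of all genes did. At an unadjusted p under 0.05 the count was also 0 of 6, beside 5.12% of all genes. A negative sign was found for 4 of the genes and a positive one for 2 in the authors' deposited table, where 71.8% of genes of at least 1 CPM and 57.9% of all genes had a positive sign. Their median log2 fold change stood at -0.01, beside 0.08 for genes of at least 1 CPM, as all 6 were, and 0.04 for all genes. Each of the 6 approximate intervals included 0. A p that misses the threshold does not show equal levels, and the intervals below give the changes that the data leave possible.

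Of the transport genes, Slc12a1 (chromosome 2, 125152600 to 125229999, GRCm38) was measured at a mean of 374 CPM, and the authors' deposited table gave it a log2 fold change of -0.11 (95% interval -0.48 to 0.26, p = 0.556). Its ratio between the groups was 0.93, with an interval from 0.72 to 1.20. With the transcript of smallest p in place of that of highest level, the log2 fold change of Slc12a1 was -0.73, still not called (adjusted p = 0.778). For Bsnd (chromosome 4, 106483456 to 106492283), at 23.8 CPM, the authors' deposited table gave 0.08 on the log2 scale (-0.22 to 0.38, p = 0.614). Bsnd had the narrowest interval of the 6 genes, a ratio from 0.86 to 1.30.

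Of the receptors, Casr (chromosome 16, 36493696 to 36562134) had the largest log2 fold change of the 6 genes, which the authors' deposited table gave as -0.34 (-0.72 to 0.03) at a mean of 6.78 CPM. The authors' deposited table gave a p of 0.0750 and an adjusted p of 0.794, and 7.63% of all genes had a smaller p. The ratio of 0.79 had an interval from 0.61 to 1.02. Ptger3 (chromosome 3, 157566900 to 157644756) was measured at 13.2 CPM, with 0.02 on the log2 scale in the authors' deposited table (-0.32 to 0.35, p = 0.923). Whether the receptors differ from each other in their change was not tested.

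Of the secreted proteins, Umod (chromosome 7, 119462713 to 119479255) was measured at 1270 CPM, and its log2 fold change was -0.01 (-0.39 to 0.37, p = 0.943) in the authors' deposited table. Its ratio of 0.99 had an interval from 0.76 to 1.29. Egf (chromosome 3, 129677565 to 129755316), at 414 CPM, had one of -0.00 (p = 0.998) in the authors' deposited table, but its interval was the widest of the 6 genes, from -0.71 to 0.71. A ratio for Egf anywhere from 0.61 to 1.64 therefore lay within the error. That error may be imprecise, since both values it uses were very small. They were a log2 fold change of -0.000846 and a likelihood ratio of 5.45e-06. In GENCODE vM21 antisense genes overlap 539 nt of the Umod exons (Gm44588) and 607 nt and 500 nt of the Egf exons (Gm42697 and 6330410L21Rik). The sources used here do not give the strand setting of the counting. Whether reads of these partners were counted with those of Umod and Egf is therefore unknown. No exon of another gene overlapped the representative transcripts of Slc12a1, Bsnd, Casr and Ptger3.

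**Figure D2:**
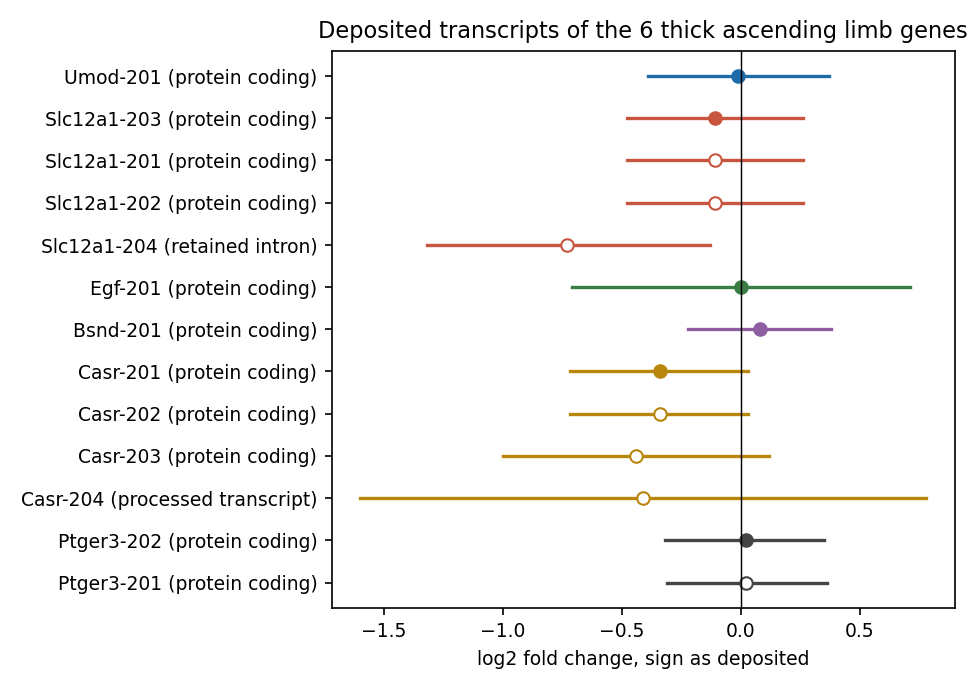
Log2 fold change of every deposited transcript of the 6 genes (points, horizontal axis, sign as deposited) with its approximate 95% interval (lines), where filled points mark the transcript that represents its gene. All intervals but that of Slc12a1-204, from -1.32 to -0.13, cross 0.

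The error itself varied between the genes. The approximate standard error of the log2 fold change was 0.36 for Egf, 0.19 for Umod, Slc12a1 and Casr, 0.17 for Ptger3 and 0.15 for Bsnd. Among the 80 genes within 0.5 of Egf on the mean log2 CPM scale, the median standard error was 0.19 and 95% had a smaller one than Egf. The fold change and likelihood ratio of Egf were both very small, so its standard error and the values that use it may be imprecise. The low receptors and Bsnd also lay above their neighbours in error. The share of genes of like level with a smaller standard error was 89.6% for Ptger3, 88.4% for Casr and 84.7% for Bsnd. Umod and Slc12a1 lay close to the middle, with 41.7% of 12 and 47.9% of 96 genes of like level below them. A change would have needed a log2 size of about 1.68 in Egf to match the weakest call of the table, whose likelihood ratio was 21.5. The same size was 0.90 in Umod and Casr, 0.88 in Slc12a1, 0.79 in Ptger3 and 0.72 in Bsnd.

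**Figure D3:**
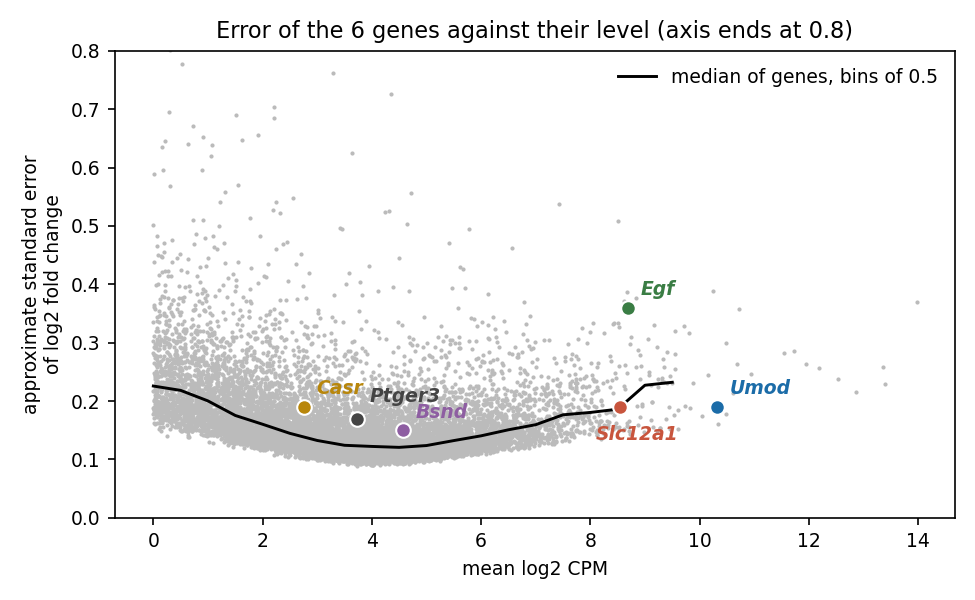
Approximate standard error of the log2 fold change (vertical axis, shown up to 0.8) against mean log2 CPM (horizontal axis) for genes of at least 1 CPM (grey) and the 6 genes (coloured), with the median of genes in bins of 0.5 as a black line. Egf at 0.36, an error formed from very small values, lies well above the line, and Umod and Slc12a1 at 0.19 lie near genes of their level.

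The transcripts of a gene had like values except in Slc12a1. The table held 13 transcripts of the 6 genes, 11 of them coding, out of 27 annotated in GENCODE vM21. None of the 13 had an adjusted p under 0.05, where 0.0141% of all transcripts did. Their values are not independent, since transcripts of a gene share most of their reads. The coding Slc12a1 transcripts, which differ in the cassette printed above, had log2 fold changes of -0.11 each and a mean of 374 CPM each in the authors' deposited table. Values this alike do not resolve the cassettes, and a shift between the NKCC2 isoforms could not be read from them. Likewise Casr-201 and Casr-202, with and without the 231 nt exon, both had a log2 fold change of -0.34 in the authors' deposited table, and Ptger3-202 and Ptger3-201 both had 0.02. Casr-203, a shorter coding transcript (3659 nt), had a log2 fold change of -0.44 (p = 0.120) with a mean of 3.83 CPM in the authors' deposited table. The short noncoding Casr-204 had one of -0.41 (p = 0.500) and, at 0.164 CPM, the lowest level of the 13 in the authors' deposited table. All 4 Casr transcripts thus had a negative sign, and each interval included 0.

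Slc12a1-204 was the 1 transcript of the 13 with an unadjusted p under 0.05, where 6.08% of all transcripts had one. It is annotated as retaining an intron and holds 5 exons from the start of the gene. Its last exon, of 1023 nt at chr2:125166123-125167145, runs through 2 of the printed cassettes, those of Slc12a1-201 and Slc12a1-203, and 831 nt of intron around them. The authors' deposited table gave it a log2 fold change of -0.73 (-1.32 to -0.13, p = 0.0161) for a mean of 20.4 CPM. The adjusted p was 0.778, so it was not called over all transcripts. Its mean level in CPM, not scaled to length, was 5.45% of that of Slc12a1-203. Per length, Slc12a1-204 (1876 nt) stood at 10.9 CPM per kb and Slc12a1-203 (4642 nt) at 80.6 CPM per kb.

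The log2 fold change of Slc12a1-204 was 0.61 below that of the coding transcript (a difference of -0.61), a feature singled out after its value was seen. Over 7815 intron-retaining transcripts of at least 1 CPM with a coding partner, the median difference was -0.04, and 20 (0.256%) were as negative or more. The 20 came from 14 genes, and after Slc12a1-204 the highest level among them was 5.19 CPM. Among all 7891 intron-retaining transcripts of at least 1 CPM, 4.80% had an unadjusted p under 0.05. No test of the difference between 2 transcripts of a gene can be made from the deposited values.

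Fold changes in this table moved with transcript length, which bears on small values such as those of these genes. Among the 13115 genes with 1 CPM or more, length and log2 fold change had a Spearman's rho of -0.51, a description across genes that share their libraries. The trend on length and level stood at 0.12 for a gene like Ptger3 (2097 nt), 0.08 for Umod (2625 nt) and 0.09 for Bsnd (2756 nt). It stood at 0.02 for Casr (4534 nt), 0.01 for Slc12a1 (4642 nt) and 0.00 for Egf (4761 nt). With that trend removed, all 6 genes had a negative sign, beside 6576 of the 13115 genes. The log2 fold changes were then -0.37 for Casr, -0.12 for Slc12a1, -0.10 for Ptger3, -0.09 for Umod and -0.01 for Bsnd and Egf. None had an unadjusted p under 0.05, and the smallest was that of Casr (0.0566). What part the trend has in the deposited values was not tested.

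**Figure D4:**
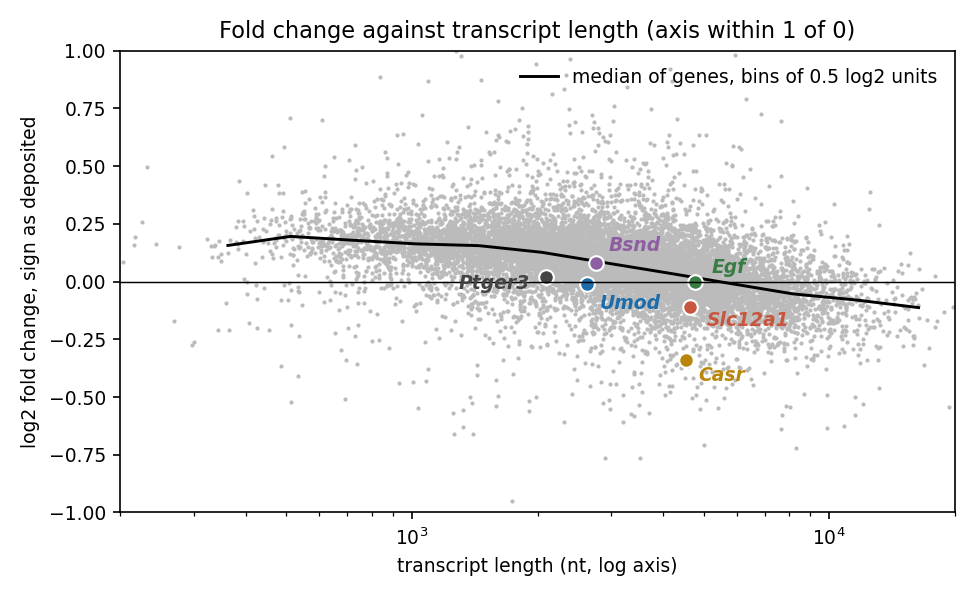
Log2 fold change (vertical axis, shown within 1 of 0, sign as deposited) against transcript length in nt (log horizontal axis) for genes of at least 1 CPM (grey) and the 6 genes (coloured), with the median of genes by length as a black line. Casr at -0.34 lies well below the line, and Bsnd and Egf lie on it.

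Other genes of the limb were not called either. Of 18 further transport genes of the segment, 10 were positive and 8 negative in sign, their median log2 fold change was 0.01, and 0 were called or had an unadjusted p under 0.05. Among those of smallest p in the authors' deposited table was Cldn16 (log2 fold change 0.21, interval -0.08 to 0.50), which forms the paracellular path for magnesium and calcium. It was followed by the ammonia transporter gene Rhcg (0.21) and the sodium pump subunit gene Atp1b1 (0.20) in the authors' deposited table. Kcnj1, which encodes ROMK, had a log2 fold change of -0.11 (-0.42 to 0.20) and the claudin gene Cldn10 one of -0.09 (-0.47 to 0.30) in the authors' deposited table. Of the 18 other markers of the segment, 17 reached 1 CPM, with a median of 0.04 over all 18 and none called or with an unadjusted p under 0.05. Among the marker genes of smallest p in the authors' deposited table was Tmem72 (-0.17, p = 0.132).

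Regulators of NKCC2 gave 13 positive and 9 negative signs among 22, a median of 0.05 and no gene with an unadjusted p under 0.05. Stk39, which encodes the kinase SPAK that phosphorylates NKCC2, had a log2 fold change of -0.06 (-0.31 to 0.19) in the authors' deposited table. Lowest in p among them, by the authors' deposited table, were the vasopressin receptor gene Avpr1a (-0.30, p = 0.0805), the calcitonin receptor gene Calcr (0.49), the cGMP-dependent kinase gene Prkg2 (0.40) and the protein kinase A gene Prkaca (0.15).

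Around uromodulin, 11 genes of its processing, its relatives and genes of the same inherited tubular disease had a median of 0.05, with none called. Hpn, the protease hepsin that releases uromodulin into the urine, had a log2 fold change of 0.17 (-0.24 to 0.59) in the authors' deposited table. Ren1, the renin gene, had one of 0.61 (0.14 to 1.08, p = 0.0107) in the authors' deposited table. Its level was 16.6 CPM and its adjusted p was 0.715. It was the 1 gene of the 11 with an unadjusted p under 0.05, beside 5.12% of all genes with either sign and 3.58% with a positive one. Some mouse strains carry the near-identical Ren2, so the reads of Ren1 may be shared. Gp2, a relative of Umod, had a log2 fold change of -0.22 and the protease gene Prss8 one of 0.13 in the authors' deposited table.

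Among 17 genes of the EGF system 10 were positive and 7 negative in sign, around a median of 0.01, and none had an unadjusted p under 0.05. Egfr, the receptor, had a log2 fold change of -0.04 (-0.25 to 0.17) in the authors' deposited table. The receptor gene Erbb4 (-0.27, p = 0.0564) and the ligand gene Hbegf (0.27, p = 0.123) came first by p in the authors' deposited table, followed by Rhbdf1 (0.13) and the EGF receptor inhibitor gene Errfi1 (0.22). Of 15 genes of calcium sensing 10 were positive in sign, around a median of 0.04, and none had an unadjusted p under 0.05. They were led in the authors' deposited table by the G protein genes Gnaq (-0.16, p = 0.104) and Gnai2 (0.20), then Cldn16 and Rgs2 (0.20), a regulator of G proteins. Cldn14, the claudin through which the calcium-sensing receptor blocks calcium passage, was scarce, at 0.199 CPM in the authors' deposited table.

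Of 17 genes of prostaglandin E2, the ligand of EP3, 14 were positive in sign, around a median of 0.12. An unadjusted p under 0.05 was found for 3, all positive, beside 5.12% of all genes with either sign and 3.58% with a positive one. They were the reductase gene Ptgr1 (0.37, p = 0.00799), the cyclooxygenase gene Ptgs1 (0.34, p = 0.0200) and the prostacyclin synthase gene Ptgis (0.42, p = 0.0416) in the authors' deposited table, and their adjusted p lay from 0.689 to 0.794. Abcc4, an exporter of prostaglandins, had a log2 fold change of 0.33 (-0.00 to 0.66) in the authors' deposited table. Once the trend on length and level was removed, the median of the group was 0.03, the same as for the EGF system, and 9 of its genes of at least 1 CPM were positive and 6 negative in sign. Over all 6 groups of related genes, 4 of 96 genes had an unadjusted p under 0.05, all with a positive sign. The share over all genes was 5.12% with either sign and 3.58% with a positive one, and that of the groups was near these. The receptor gene Ptger4 had a log2 fold change of 0.11 (-0.33 to 0.56) and the inducible cyclooxygenase gene Ptgs2 one of 0.22 (-0.49 to 0.93) in the authors' deposited table, with a mean of 0.936 CPM for Ptgs2.

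**Figure D5:**
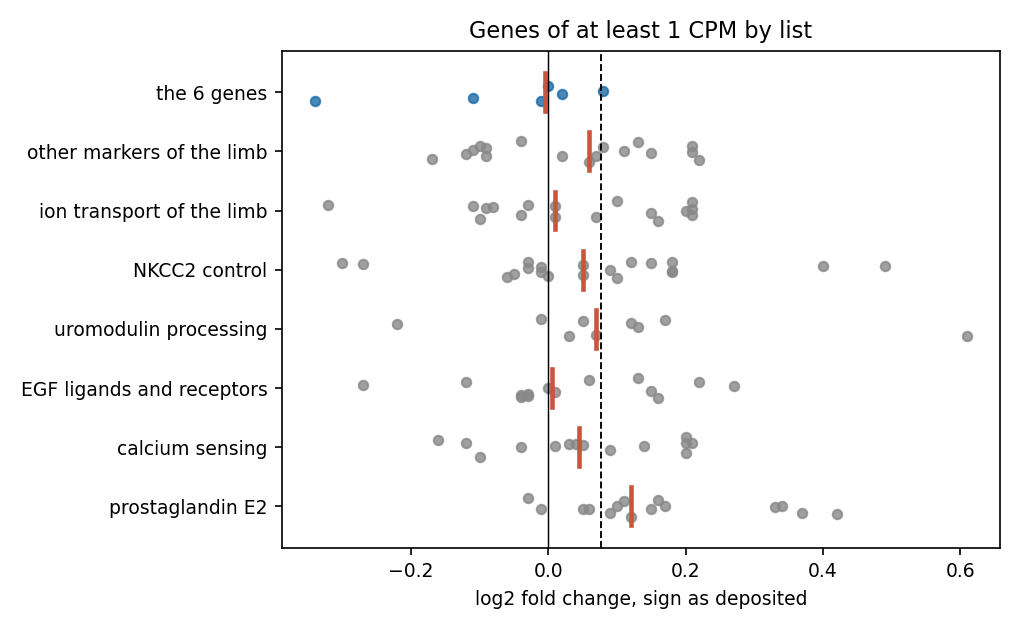
Log2 fold change (horizontal axis, sign as deposited) of each gene of at least 1 CPM in the 6 genes (blue) and in lists of related genes (grey), with each median as a red bar and the median of all genes of at least 1 CPM, 0.08, as a dashed line. The lists overlap throughout, with Casr at -0.34 as the lowest point and Ren1 at 0.61 as the highest.

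No marker list of another kidney cell type held a called gene either. The median log2 fold change was 0.03 for macula densa, 0.09 for proximal tubule, 0.02 for thin limbs, 0.24 for distal convoluted and connecting tubule, 0.16 for principal cells and 0.13 for intercalated cells. It was 0.13 for podocytes, 0.19 for endothelium, 0.00 for fibroblasts and mural cells, 0.13 for leukocytes and 0.77 for urothelium. Genes with an unadjusted p under 0.05 in the authors' deposited table included the thin limb gene Akr1b3 (0.50) and the urothelial gene Psca (1.08), both with a positive sign. Only 1 of the 6 urothelial genes reached 1 CPM, and all 6 had a positive sign. Slc12a3, the thiazide-sensitive cotransporter of the next segment, had a log2 fold change of 0.18 (-0.15 to 0.51) in the authors' deposited table. The part of other cell types in the values of the 6 genes was not tested.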

How the data were processed

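RNA-seq of kidneys from 10 mice was grouped by the treatment in the sample titles. Reads were handled with STAR 2.5.3a, featureCounts (Subread 1.4.6), edgeR and FastQC 0.11.2 on mm10, per the submitters' processing notes. The annotation release, strand setting, filters and depths are not given in the sources used here. The authors deposited a finished edgeR likelihood-ratio comparison per GENCODE transcript. Its log2 fold change and mean log2 CPM were made by the authors with edgeR before they were deposited, per the file headers. Beside them the authors deposited the likelihood ratio, a score on 1 degree of freedom, and a p-value with its adjusted value. The p-values matched the chi-square tail of the score, and the adjusted values matched Benjamini-Hochberg over the 85107 transcripts, to within rounding.

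Identifiers were joined without their version to GENCODE vM21 on GRCm38, which is the assembly named mm10, and 83446 (98.0%) matched. Dividing the size of the log2 fold change by the root of its likelihood ratio gave an approximate standard error, which may be imprecise where both are very small. That error rests on the authors' model alone, and the depth and therefore the counting error of each library are unknown. Trends were fitted by loess (span 0.5) over genes with 1 CPM or more, a step tested on simulated data. The simulated data held a straight trend on log length and even noise. They therefore do not test how a trend on level or a curved trend is removed. Sequences are from the vM21 transcripts. Python 3.11.15, pandas 2.3.3, scipy 1.17.1, matplotlib 3.10.9 and R 4.3.3 were used.

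A test on counts per library had been planned in case the file held them, and the authors' test was used because it does not. The 6 genes, 6 lists of related genes and 12 marker lists were chosen with earlier results of these data known. Each list of related genes gave up to 4 names with the smallest p among genes of 1 CPM or more, with Kcnj1, Cldn10, Cldn16, Hpn, Stk39, Egfr, Ptgs2 and Ptger4 in any case. Marker lists gave up to 2, of which those with an unadjusted p under 0.05 and those of the limb are printed. Some genes that these rules would name are not reported here. Slc12a1-204, Cldn14, Slc12a3, Kap, Slc34a1 and Aqp2 were named outside that rule. Genes most like a member in pattern could not be sought, since there are no values per library.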

Additional observations from a re-analysis of the deposited data

How the results depend on the processing

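None of the 6 genes was called under any of 7 alternatives each, which took other transcripts, removed trends or adjusted p over fewer rows. The smallest adjusted p was 0.778. Of the 42 values 39 kept their sign, but many of them could not change. Adjusting p over fewer rows leaves the fold change as it was, and the coding transcript of highest level was already the representative. For the 3 genes with a single transcript in the table, no other could be taken. Signs turned only where a trend was removed. Without the trend on length and level, the log2 fold change was -0.01 for Bsnd and -0.10 for Ptger3, and with the level trend alone it was -0.05 for Ptger3, each with the sign turned. Slc12a1 moved most, from -0.11 to -0.73 (adjusted p = 0.778) with the transcript of smallest p, and Casr ranged from -0.41 to -0.34. All genes past the threshold numbered 6, and 1426 at an unadjusted p under 0.05. The 12 list medians under alternatives moved by at most 0.09. No paired analysis was possible because the deposited comparison has no values per library. Leaving out each library was not run for the same reason, so whether 1 mouse decides a value is unknown. The unknown depth limits what small changes in Casr and Ptger3, the lowest genes, can show.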
